A study of Mus musculus with 6 samples.

Results

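C2cd4a, C2cd4b and Vps13c are 3 neighbouring genes on mouse chromosome 9, in the region that matches the human C2CD4A/C2CD4B/VPS13C locus of type 2 diabetes and fasting glucose. They were found by symbol, as 3 of 23179 gene rows in each library, and each symbol was on 1 row. The 3 were chosen from measured values of these same libraries, so their differences between the groups are given as a description, without a test. RNA was sequenced from pancreatic islets, the hormone-secreting cell clusters of the pancreas. One group was Ffar3-/- (knockout, KO), lacking a G protein-coupled receptor for short-chain fatty acids, and the other was wild type (WT). All mice were male C57BL/6J animals aged 10 to 14 weeks. Each group had 3 libraries, described as biological replicates, each made from islets pooled from 2 pancreata. Ffar3 itself had listed values of 0, 0 and 0.105 FPKM in the 3 KO replicates, against 4.69, 5.26 and 6.68 FPKM in WT replicates 1, 2 and 3, which matched the labels.

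C2CD4A and C2CD4B are small nuclear proteins with a C2 domain. They were first described in human endothelial cells as products of genes induced by interleukin 1, and in mice C2cd4a has been studied in beta cells, including as a target of the transcription factor FOXO1. VPS13C is a very large bridge-like lipid transfer protein that works where the endoplasmic reticulum meets late endosomes and lipid droplets, and loss of the human gene causes an early-onset form of parkinsonism. The human locus holds common variants tied to diabetes risk, and all 3 genes have been considered as carriers of that effect.

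In the GENCODE M21 annotation of GRCm38, C2cd4b lies at chr9:67759437-67760930 on the plus strand, C2cd4a at chr9:67830489-67832330 on the minus strand and Vps13c at chr9:67840396-67995638 on the plus strand. C2cd4a and Vps13c point away from each other, with start sites 8.07 kb apart, and C2cd4b and C2cd4a point towards each other with 69.56 kb between their ends. Both C2cd4 genes have 2 exons and transcripts of 1395 bases (C2cd4a) and 1327 bases (C2cd4b), whereas Vps13c has up to 85 exons and a longest transcript of 11527 bases. A long noncoding RNA gene on the opposite strand, M5C1000I18Rik, overlaps C2cd4b. Whether the counting used strand is unknown from the sources used here, so reads of that RNA and of C2cd4b cannot be told apart.

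C2cd4a and C2cd4b are close copies, which bears on how reads are assigned to them. Their coding sequences, of 1002 and 1020 bases, were identical at 833 of 947 aligned bases (88.0%). The longest run without a mismatch is shown because fragments from it could come from either gene. It is 104 bases long, is coding in both genes, and covers chr9:67831050-67831153 (minus strand, C2cd4a) and chr9:67760330-67760433 (plus strand, C2cd4b) in GRCm38, with no letter in capitals.
C2cd4a and C2cd4b, shared run: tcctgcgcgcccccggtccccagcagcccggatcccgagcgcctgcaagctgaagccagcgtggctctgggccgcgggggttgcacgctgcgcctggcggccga
Of all stretches of 50 bases, 7.95% in the C2cd4a transcript and 8.37% in the C2cd4b transcript also occurred in the other, and at 100 bases the shares were 0.39% and 0.41%. Read length, and what was done with reads of more than 1 match, are not stated in those sources. The split of fragments between the pair within these stretches is therefore uncertain.

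The promoters of the pair are shown because C2cd4a and C2cd4b were low in the same libraries. They come from the RefSeq table on GRCm38.p6, which covers 250 bases before to 50 bases after a start site, 5′ to 3′ on the strand of the gene. C2cd4a is chr9:67832281-67832580 on the minus strand, and C2cd4b is chr9:67759187-67759486 on the plus strand. Capitals mark the short form of the cAMP response element (TGACG, read here as CGTCA on the other strand) and the TATA box (TATAAA).
C2cd4a promoter: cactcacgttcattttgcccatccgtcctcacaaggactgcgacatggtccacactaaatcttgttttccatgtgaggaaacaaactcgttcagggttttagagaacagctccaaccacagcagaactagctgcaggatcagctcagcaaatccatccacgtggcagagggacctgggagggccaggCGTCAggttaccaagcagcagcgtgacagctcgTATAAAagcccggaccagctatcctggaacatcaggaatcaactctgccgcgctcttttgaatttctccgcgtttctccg
C2cd4b promoter: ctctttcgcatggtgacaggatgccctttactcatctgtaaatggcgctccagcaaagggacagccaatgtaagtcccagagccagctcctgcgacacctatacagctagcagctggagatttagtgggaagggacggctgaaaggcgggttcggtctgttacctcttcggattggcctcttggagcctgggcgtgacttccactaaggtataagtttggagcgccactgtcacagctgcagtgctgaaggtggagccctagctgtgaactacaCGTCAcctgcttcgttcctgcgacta
Each promoter held 1 short form, 63 bases before the start site in C2cd4a and 24 bases after it in C2cd4b, and 20.81% of the 32851 promoter windows in the table held one. The TATA box letters were found in C2cd4a alone, 30 bases before its start, and in 13.62% of all windows. The NFAT core GGAAAA occurred in C2cd4a, 186 bases before the start, as TTTTCC, and in 23.36% of windows. Neither window held the full cAMP response element TGACGTCA (1.79% of windows), whose letters include the short form, the AP-1 site TGANTCA (7.81%), the forkhead site GTAAACA (3.65%) or the NR4A site AAAGGTCA (1.51%). Both strands were searched, and a match is a run of letters, not a bound site.

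C2cd4a and C2cd4b were lower in every KO library than in every WT library, whereas Vps13c, 8.07 kb from C2cd4a, was at nearly the same level in both groups. C2cd4a had 13.2, 6.77 and 5.84 FPKM in KO replicates 1, 2 and 3, against 36.6, 34.6 and 44.9 FPKM in WT replicates 1, 2 and 3. The groups did not overlap, and the highest KO library, replicate 1, lay 2.62-fold below the lowest WT library. The means were 8.61 ± 4.01 FPKM in KO islets and 38.7 ± 5.49 FPKM in WT islets (SD, n = 3 each), a log2 difference of -2.11 on the log2(FPKM + 1) scale, used for all log2 differences. C2cd4b, the more abundant of the pair per unit of length, had 135, 84.1 and 61.2 FPKM in KO replicates 1, 2 and 3, against 275, 252 and 281 FPKM in WT replicates 1, 2 and 3. Again no KO library reached a WT library, the nearest pair being 1.86-fold apart. Its means were 93.5 ± 37.9 FPKM in KO islets and 269 ± 15.5 FPKM in WT islets, a log2 difference of -1.59. Vps13c had 4.67, 4.54 and 6.08 FPKM in KO replicates 1, 2 and 3, against 4.83, 5.35 and 4.95 FPKM in WT replicates 1, 2 and 3. Its groups overlapped, with KO libraries both below and above all WT libraries, and the means were 5.10 ± 0.856 FPKM in KO islets and 5.04 ± 0.272 FPKM in WT islets.

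**Figure D1:**
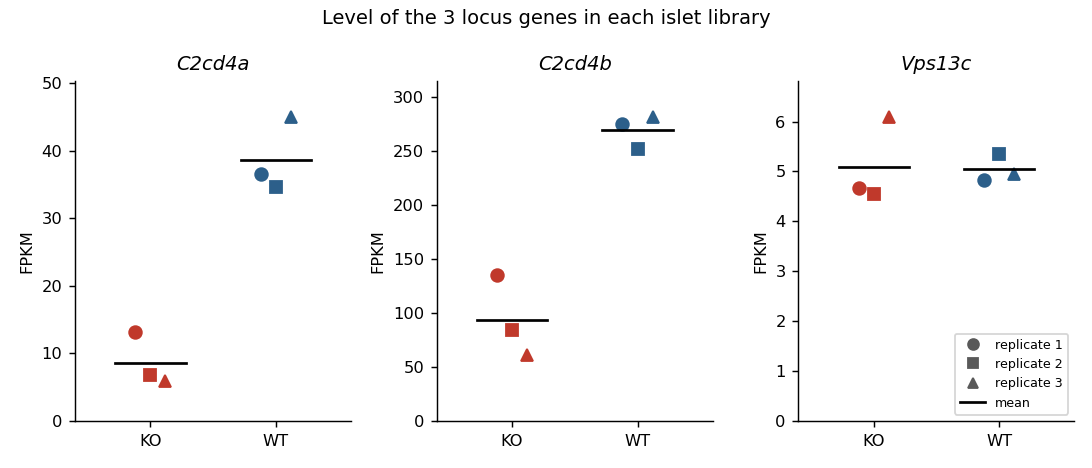
FPKM of C2cd4a, C2cd4b and Vps13c in each library (points, replicates 1 to 3), with KO left of WT and the mean as a line, each gene on its own linear axis from 0. The KO points of C2cd4a (5.84 to 13.2) and C2cd4b (61.2 to 135) all lie below the WT points, and those of Vps13c lie on both sides of them.

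All 3 KO libraries lay below all 3 WT libraries for 2 of the 3 genes, and the same held for 28.5% of the 11669 tested genes. Since the genes were chosen on this contrast, nothing is read from that count. Among the tested genes, 14 had a lower log2 difference than C2cd4a and 31 a lower one than C2cd4b. By mean FPKM in WT islets C2cd4b was the 205th, C2cd4a the 1608th and Vps13c the 7935th highest of all rows, and in KO islets they were the 595th, 6168th and 8022nd. KO replicates 1, 2 and 3 held 34.1%, 17.5% and 15.1% of the WT mean of C2cd4a, and 50.2%, 31.2% and 22.7% of that of C2cd4b. In both genes replicate 1 was the least low and replicate 3 the lowest.

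The KO libraries also differed more from each other than the WT libraries did. The coefficient of variation of C2cd4a was 46.6% in KO islets and 14.2% in WT islets, and that of C2cd4b was 40.5% in KO islets and 5.75% in WT islets. For Vps13c it was 16.8% in KO islets and 5.39% in WT islets. The C2cd4b level was 10.2, 12.4 and 10.5 times the C2cd4a level in KO replicates 1, 2 and 3, against 7.51, 7.28 and 6.26 times in WT replicates 1, 2 and 3. The ratio was higher in every KO library, since C2cd4a was the lower of the pair relative to WT. The ratio of C2cd4a to Vps13c was 2.83, 1.49 and 0.961 in KO replicates 1, 2 and 3, against 7.58, 6.47 and 9.07 in WT replicates 1, 2 and 3, so that in KO replicate 3 alone Vps13c was the higher of those neighbours.

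Transcripts of acinar cells, the enzyme-secreting cells around the islets, differed between the same libraries. The 20 acinar markers took 5.08%, 30.2% and 42.5% of the summed FPKM in KO replicates 1, 2 and 3, against 7.85%, 5.25% and 7.19% in WT replicates 1, 2 and 3. Of the 20, 1 was called higher (adjusted p under 0.05 by limma), against 20.3% of all tested genes. KO replicate 1, with an acinar share of 5.08%, had C2cd4a at 34.1% and C2cd4b at 50.2% of the WT mean. This is 1 library, and its lymphocyte and alpha cell markers, given below, differed from WT. Compared alone with WT, that library gave log2 differences of -1.47 for C2cd4a and -0.99 for C2cd4b. With the mean acinar level as a covariate the differences were -1.59 for C2cd4a and -1.06 for C2cd4b. The part of the acinar signal in the lower values of the KO libraries was not tested. In bulk tissue, fewer cells of a type and less RNA per cell cannot be told apart.

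Markers of other cell types are given next. Of all tested genes, 39.9% were called, 19.6% lower and 20.3% higher, and the counts here are to be read beside those shares. Summed over 10 lymphocyte markers, KO replicates 1, 2 and 3 had 84.7, 147 and 16.2 FPKM, against 6.73, 7.95 and 6.76 FPKM in WT replicates 1, 2 and 3, with 3 of 6 tested markers called higher. Of 10 endothelial markers, 1 was called higher and 3 lower, and their sums were 149, 173 and 146 FPKM in KO replicates 1, 2 and 3, against 186, 157 and 202 FPKM in WT replicates 1, 2 and 3. Of the 9 tested beta cell markers 3 were called lower and none higher. Ins2, the main mouse insulin gene, was listed at 0 in all 6 libraries, and Ins1 was listed at 0 in all but KO replicates 2 and 3, so the insulin genes could not serve as a measure of beta cell content. Of 6 alpha cell markers 3 were called lower, with sums of 13613, 9306 and 7234 FPKM in KO replicates 1, 2 and 3, against 19874, 24082 and 20852 FPKM in WT replicates 1, 2 and 3. Of 3 delta cell markers 1 was called lower, with sums of 4639, 2736 and 2581 FPKM in KO replicates 1, 2 and 3, against 5323, 5373 and 5095 FPKM in WT replicates 1, 2 and 3. Both sums stood in the same order of KO libraries as C2cd4a and C2cd4b. Their largest members, Gcg and Sst, were not called themselves (adjusted p = 0.070 and 0.084). The 2 PP cell markers, neither of them called, did not follow that order. They summed to 9599.8, 6960.5 and 7537.0 FPKM in KO replicates 1, 2 and 3, against 8657.7, 10864.6 and 8997.0 FPKM in WT replicates 1, 2 and 3. Of 6 tested duct markers 1 was called higher, Krt19, with 3.35, 23.3 and 30.8 FPKM in KO replicates 1, 2 and 3, against 1.11, 0.825 and 0.953 FPKM in WT replicates 1, 2 and 3. Krt7, the most abundant duct marker, was lower in every KO library than in every WT library but was not called (adjusted p = 0.126). The duct sums were 174, 223 and 228.8 FPKM in KO replicates 1, 2 and 3, against 174.5, 162.2 and 165.6 FPKM in WT replicates 1, 2 and 3. When the libraries were scaled to the 8 beta cell markers other than the insulin genes, the log2 differences were -1.68 for C2cd4a, -1.13 for C2cd4b and 0.40 for Vps13c, while the median of all genes moved to 0.40. The part of cell composition in these differences was not tested. Total depth was unknown, and the fragments behind 1 FPKM were estimated at 119%, 89.4% and 59.5% of those of WT replicate 1 in KO replicates 1, 2 and 3, against 108% and 114% in WT replicates 2 and 3.

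Across the 6 libraries, the profile of C2cd4b followed that of C2cd4a, with a Pearson r of 0.990 on log2(FPKM + 1), and 0.945 after each group's mean was taken out. Vps13c had an r of -0.19 to C2cd4a and -0.31 to C2cd4b over the 6 libraries, and of -0.56 and -0.74 after the group means were taken out. These points share libraries, genotype and acinar signal, so they are a description. Of the genes compared with C2cd4a over the 6 libraries, 0.785% had an r at least as high as that of C2cd4b. The pair also shares stretches where the split of fragments is uncertain, and the part of these in the likeness was not tested. The 5 tested genes most like C2cd4a by this measure were Rassf10, Abcc8, Ap3b1, Rimbp2 and Hspa1a, with r between 0.998 and 0.9995. Abcc8, the sulfonylurea receptor subunit of the beta cell potassium channel, had 154, 135 and 132 FPKM in KO replicates 1, 2 and 3, against 193, 189 and 198 FPKM in WT replicates 1, 2 and 3. Hspa1a, an inducible heat shock protein, had 156, 98.4 and 93.9 FPKM in KO replicates 1, 2 and 3, against 376, 379 and 434 FPKM in WT replicates 1, 2 and 3. Both were picked for this likeness, so their order over the libraries follows from the choice. The 5 most like C2cd4b were Eif2b3, Ankrd37, Hdac1, Kbtbd3 and Gnai2, with r between 0.997 and 0.999, and no gene was on both lists. Gnai2, an inhibitory G protein alpha subunit, had 153, 137 and 129 FPKM in KO replicates 1, 2 and 3, against 180, 181 and 180 FPKM in WT replicates 1, 2 and 3. The genes most like Vps13c included Cyp2j6, Odz3, Iah1 and Gyg, with r between 0.970 and 0.983.

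**Figure D2:**
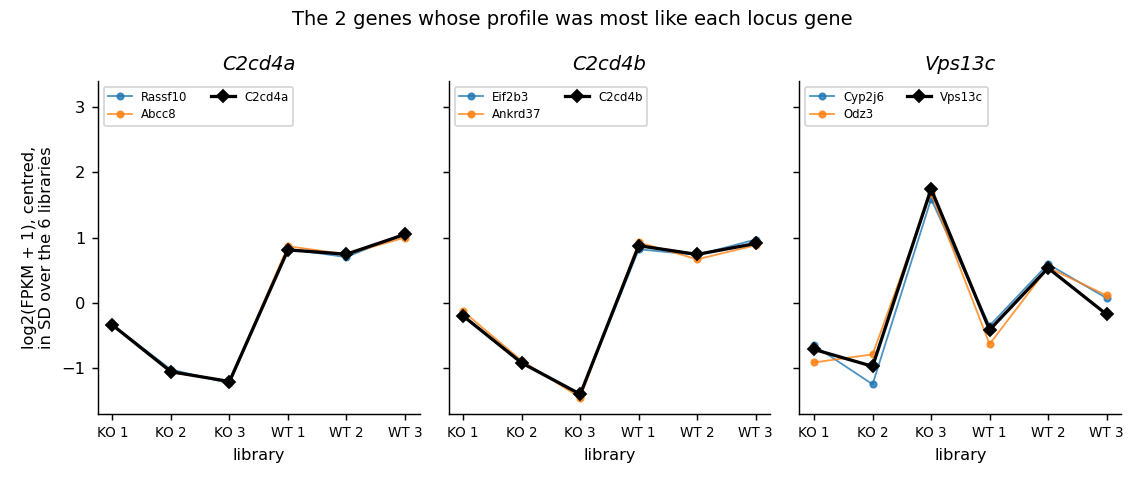
Profiles of C2cd4a, C2cd4b and Vps13c (black) and of the 2 tested genes most like each (colours) over KO replicates 1 to 3 and WT replicates 1 to 3. The y axis is log2(FPKM + 1), centred on its mean and in SD over the 6 libraries. The coloured genes were chosen for their likeness to the black one. C2cd4a and C2cd4b are lower in all KO libraries, and Vps13c is highest in KO replicate 3 (6.08 FPKM).

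Over the whole table, limma with Benjamini-Hochberg adjustment called 4657 genes at an adjusted p of 0.05 (39.9% of 11669), 2289 lower in KO (19.6%) and 2368 higher (20.3%), and the median log2 difference was -0.01. Those shares are the background for the marker counts above and for the counts below. They depend on the scaling. With the FPKM sums made equal outside the acinar markers, 1844 genes were called, 30.1% of them higher against 50.8% before, and the median moved to -0.22. Scaled to the beta cell markers, 6056 genes were called higher and 207 lower, 96.7% higher, so the direction of a list depends on this choice: contact site genes had 18 higher and 0 lower, Parkinson disease genes 9 and 0, NFAT and calcineurin genes 9 and 0, and interleukin 1 and NF-kappaB genes 17 and 3. With sums made equal outside the acinar markers the Vps13c difference was -0.20, which is 0.02 above the -0.22 of all genes.

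Within 2 Mb on either side of the 3 genes, GENCODE lists 26 other protein-coding genes. Of these, 19 were tested, 5 were higher and 1 lower in KO islets (31.6%, against 39.9% of all genes), and the median log2 difference was 0.27. The lowest difference among them was -0.27, against -2.11 for C2cd4a and -1.59 for C2cd4b. The nearest tested neighbour, Tln2, which codes for the cytoskeletal adaptor talin 2 and lies 199.7 kb away, had 1.83 ± 0.465 FPKM in KO islets and 1.27 ± 0.164 FPKM in WT islets (adjusted p = 0.113). Rora, a nuclear receptor of the clock, is 658.1 kb away on the other side and had 9.87 ± 1.65 FPKM in KO islets and 10.05 ± 0.200 FPKM in WT islets (adjusted p = 0.814). Tpm1, for the actin-binding protein tropomyosin 1, had 45.4, 61.2 and 49.9 FPKM in KO replicates 1, 2 and 3, against 24.9, 23.8 and 23.7 FPKM in WT replicates 1, 2 and 3. It was higher in every KO library, and the log2 difference was 1.07, with an SE of 0.11 (adjusted p = 0.0009). Lactb, a mitochondrial filament protein, was also higher (0.59, adjusted p = 0.00673).

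Of the other called neighbours, Anxa2, a calcium-dependent membrane-binding protein 1458 kb away, had 13.6, 37.6 and 26.2 FPKM in KO replicates 1, 2 and 3, against 8.22, 7.16 and 7.20 FPKM in WT replicates 1, 2 and 3 (log2 difference 1.55, adjusted p = 0.00959). Its KO libraries were all above WT, with replicate 2 the highest. Rab8b, a small GTPase of vesicle traffic (0.59, adjusted p = 0.0164), did not pass when WT replicate 1 or WT replicate 3 was left out (adjusted p = 0.0596 and 0.0668). Bnip2 (0.36, adjusted p = 0.0429) did not pass without KO replicate 2 or any 1 WT library, with adjusted p between 0.0639 and 0.13. Aph1b, a gamma-secretase subunit with a close copy beside it (-0.27, adjusted p = 0.0496), was lost without any library but KO replicate 3 (adjusted p between 0.0655 and 0.136), and reads may be split between the copies. The neighbours Rps27l, Usp3, Herc1 and Narg2 did not pass, with adjusted p between 0.127 and 0.838, though Rps27l passed with KO replicate 1 left out (adjusted p = 0.0115). The count of 6 was 3 without WT replicate 1 or WT replicate 3, and 2 with equal sums outside the acinar markers.

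**Figure D3:**
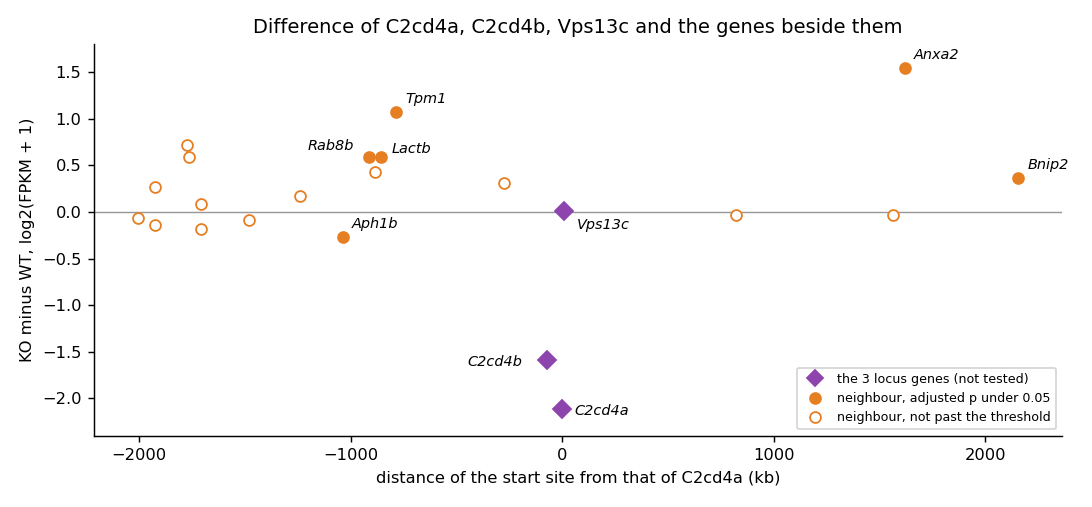
Log2 difference, KO minus WT, of each tested protein-coding gene within 2 Mb, against the distance of its start site from that of C2cd4a in kb. C2cd4a (-2.11) and C2cd4b (-1.59) are the lowest points, Vps13c is at 0.005, and the filled neighbours, with adjusted p under 0.05, lie between -0.27 and 1.55.

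The C2cd4 family has a pair of further members. C2cd4c had 1.99, 1.67 and 1.37 FPKM in KO replicates 1, 2 and 3, against 2.51, 2.63 and 2.81 FPKM in WT replicates 1, 2 and 3. It was lower in every KO library, and replicates 1 to 3 stood in the same order as for C2cd4a. The difference on the log2 scale was -0.45, with an SE of 0.11 (adjusted p = 0.0163). That call was lost without WT replicate 1, 2 or 3 (adjusted p = 0.0502, 0.0509 and 0.0662), with KO replicate 1 alone (0.0714), with the acinar covariate (0.0845) and under the beta marker scaling, where the difference was -0.14 (adjusted p = 0.34). C2cd4d was under the 1 FPKM minimum and untested, with 0.274, 0.267 and 0.0771 FPKM in KO replicates 1, 2 and 3, against 0.367, 0.291 and 0.415 FPKM in WT replicates 1, 2 and 3. Among C2 domain genes outside the family, C2cd5, listed as 5730419I09Rik and known for its part in insulin-stimulated glucose transport in adipocytes, had 6.39 ± 0.379 FPKM in KO islets and 8.24 ± 0.276 FPKM in WT islets (-0.32, adjusted p = 0.00915). Its sign turned to 0.086 under the beta marker scaling, and the call was lost with KO replicate 1 alone (adjusted p = 0.0699). C2cd2, C2cd2l and C2cd3 did not pass (adjusted p = 0.416, 0.911 and 0.785). This left 2 of 5 tested genes called (40%), at the 39.9% of all genes.

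The VPS13 paralogs of Vps13c did not pass the test. Vps13a had 3.08 ± 0.355 FPKM in KO islets and 3.10 ± 0.203 FPKM in WT islets (adjusted p = 0.922). Vps13b had 5.41 ± 0.844 FPKM in KO islets and 5.83 ± 0.247 FPKM in WT islets (adjusted p = 0.447). Vps13d had 3.87 ± 0.609 FPKM in KO islets and 4.65 ± 0.282 FPKM in WT islets (adjusted p = 0.126, and 0.0379 with KO replicate 3 left out). The other 5 bridge-like lipid transfer genes, whose products share the rod-shaped groove of VPS13, all rose, with 5 of 8 tested genes called (62.5%, against 39.9% of all genes) and a median difference of 0.24.

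**Figure D4:**
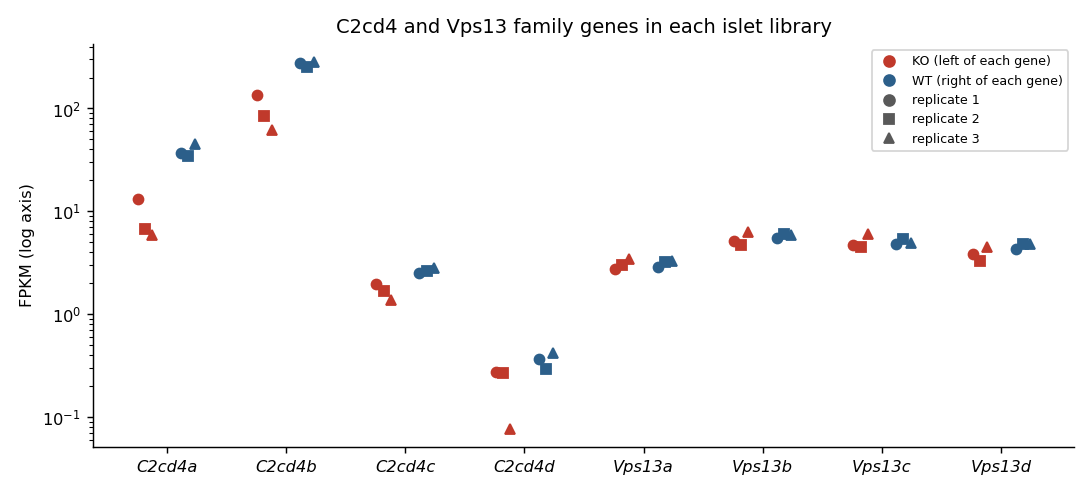
FPKM on a log axis of the C2cd4 and VPS13 family genes in each library (points, replicates 1 to 3), with KO left and WT right of each gene. The KO points of C2cd4a, C2cd4b, C2cd4c (1.37 to 1.99, against 2.51 to 2.81 in WT) and C2cd4d lie below the WT points, and those of Vps13a, Vps13b, Vps13c and Vps13d overlap with them.

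Among these, Uhrf1bp1l had 12.8, 14.9 and 14.3 FPKM in KO replicates 1, 2 and 3, against 5.78, 6.69 and 6.05 FPKM in WT replicates 1, 2 and 3. Every KO library was above WT, with a log2 difference of 1.06 ± 0.08 (SE, adjusted p = 0.00045). Its relative Uhrf1bp1 (0.50, adjusted p = 0.00587) and Atg2a, which moves lipid to the growing autophagosome (0.57, adjusted p = 0.00755), rose as well. The calls of Atg2b (0.19, adjusted p = 0.0385) and of 4932438A13Rik, the last of the 5 and named here after its values were seen (0.29, adjusted p = 0.0478), were lost without any library but KO replicate 1. With equal sums outside the acinar markers Uhrf1bp1l was the 1 gene of the 5 called, and Atg2b turned to -0.021. Of the 5, 3 were called without KO replicate 2, KO replicate 3 or any 1 WT library, and 2 with KO replicate 1 alone.

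Genes at the membrane contact sites where VPS13C works were called near the background share, with 7 higher and 1 lower of 23 tested (34.8%, median 0.08). Those with the smallest p were the sterol and phosphatidylserine carriers Osbpl8 (10.9 ± 0.338 FPKM in KO islets and 6.42 ± 0.501 FPKM in WT islets; 0.68, adjusted p = 0.00094) and Osbp (0.49, adjusted p = 0.00263), the tether Esyt1 (0.39, adjusted p = 0.00239) and Stard3nl, an endosomal tether (0.49, adjusted p = 0.00112). The count of 8 was 5 without WT replicate 1 or WT replicate 3, and 1 with equal sums outside the acinar markers. Of 17 tested Parkinson disease genes, 4 rose and 3 fell (41.2%, against 39.9% of all genes, median -0.01). Synj1 (0.43, adjusted p = 0.00544), Dnajc13 (0.44, adjusted p = 0.00662) and Scarb2 (0.37, adjusted p = 0.00947), of endocytosis and lysosomes, were among those that rose. The count of 7 was 11 without KO replicate 1 and 1 with equal sums outside the acinar markers.

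Mouse counterparts of other genes at type 2 diabetes and fasting glucose loci were also called at the background share, 8 higher and 12 lower of 50 tested (40%, median -0.06). Cry2, a clock repressor, had 50.5 ± 8.67 FPKM in KO islets and 106 ± 14.4 FPKM in WT islets (-1.06, adjusted p = 0.00253), and Ap3s2, an adaptor subunit, differed by -0.38 (adjusted p = 0.00458; 0.030 under the beta marker scaling). Adamts9, a secreted metalloprotease, had 2.05 ± 0.211 FPKM in KO islets and 0.391 ± 0.0252 FPKM in WT islets (1.13, adjusted p = 0.000695), and the RNA-binding gene Igf2bp2 rose by 0.98 (adjusted p = 0.0023). Abcc8, also among the genes most like C2cd4a, fell (-0.46, adjusted p = 0.00542), though its difference was 0.0001 under the beta marker scaling. The count of 20 was 13 without WT replicate 1 or WT replicate 3, and 11 with equal sums outside the acinar markers. Under the beta marker scaling 23 were called higher and 2 lower. Slc30a8, Slc2a2 and G6pc2 are in both the list and the scaling set, so these numbers are not independent of that scaling. C2cd4a and C2cd4b are not in these counts.

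Islet transcription factor genes, several of them regulators of beta cell genes, were called in 10 of 15 tested cases (66.7%, against 39.9% of all genes), 2 higher and 8 lower, with a median of -0.46. Rfx6, a factor of islet cell formation, had 12.8 ± 1.47 FPKM in KO islets and 26.9 ± 0.789 FPKM in WT islets (-1.02, adjusted p = 0.00052). Isl1 (-0.96, adjusted p = 0.00218) and Pax6 (-0.55, adjusted p = 0.00371) fell too. Mafa, an activator of insulin transcription, was named after its values were seen and had 69.8 ± 28.8 FPKM in KO islets and 207 ± 8.52 FPKM in WT islets (-1.63, adjusted p = 0.00435). Foxo1, whose protein acts on C2cd4a in mouse beta cells, was higher, with 22.5 ± 0.868 FPKM in KO islets and 14.7 ± 1.13 FPKM in WT islets (0.59, adjusted p = 0.00149). Foxo1 and C2cd4a thus differed in opposite directions at the level of RNA, and the activity of the protein was not measured. The Foxo1 call was lost with equal sums outside the acinar markers (adjusted p = 0.185), while 7 of the falls in the list were called there. Foxo3, also named after its values were seen, fell (-0.70, adjusted p = 0.0246), but not past the threshold without KO replicate 2, WT replicate 2 or WT replicate 3 (adjusted p between 0.0766 and 0.083). Under the beta marker scaling 4 of the 15 were called higher and 4 lower, but Mafa, Nkx6-1 and Pdx1 are in both the list and the scaling set, which draws the list towards 0 by construction.

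Genes of interleukin 1 and NF-kappaB signalling, the route by which the human C2CD4 genes were first found, were called in 14 of 25 tested cases. That is 56%, against 39.9% of all genes, with 10 higher and 4 lower. The list median was 0.20. The NF-kappaB subunit genes Nfkb2 (30.5 ± 3.59 FPKM in KO islets and 11.1 ± 1.19 FPKM in WT islets; 1.37, adjusted p = 0.00049) and Nfkb1 (1.10, adjusted p = 0.00081) and the receptor kinase gene Irak2 (0.78, adjusted p = 0.00052) rose. The 4 lower calls were Il1a and Il1b, the genes of the ligands interleukin 1 alpha and beta, and Tnfaip3 and Nfkbia. Tnfaip3 (-1.365, adjusted p = 0.00479) and Nfkbia (-0.535, adjusted p = 0.00851) were named after their values were seen. Il1rn, also named after its values were seen, was called higher, with the largest difference of the list (1.751, adjusted p = 0.00218). Il1a had 1.42 ± 0.373 FPKM in KO islets and 4.39 ± 0.305 FPKM in WT islets (-1.16, adjusted p = 0.00114). Il1b, named after its values were seen, had 14.8, 11.3 and 6.45 FPKM in KO replicates 1, 2 and 3, against 24.8, 25.7 and 25.4 FPKM in WT replicates 1, 2 and 3 (-1.22, adjusted p = 0.00917). It stood in the same order of KO libraries as C2cd4a and C2cd4b. Macrophage markers, which mark a main source of Il1b, summed to 95.1, 161 and 54.4 FPKM in KO replicates 1, 2 and 3, against 77.9, 69.4 and 78.8 FPKM in WT replicates 1, 2 and 3. The largest part of that sum was Lyz2 in KO replicate 2 and C1qa in every other library. Lyz2 had 32.9, 94.8 and 10.3 FPKM in KO replicates 1, 2 and 3, against 11.5, 9.51 and 9.92 FPKM in WT replicates 1, 2 and 3. Of the 7 tested macrophage markers none was called higher and 1 lower, C1qa (-0.37, adjusted p = 0.0353), with 50.1, 42.5 and 37.2 FPKM in KO replicates 1, 2 and 3, against 57.3, 51.6 and 58.8 FPKM in WT replicates 1, 2 and 3. C1qa was thus in the same order of KO libraries as Il1b, and the part of macrophages in the Il1b values was not tested. The count of 14 was 9 with equal sums outside the acinar markers.

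Of 11 tested NFAT and calcineurin genes, which turn calcium signals into transcription, 6 rose and 1 fell (63.6%, against 39.9% of all genes, median 0.23). The regulatory calcineurin subunit gene Ppp3r1 (56.4 ± 0.957 FPKM in KO islets and 43.4 ± 1.68 FPKM in WT islets; 0.37, adjusted p = 0.00303) and the catalytic Ppp3ca (0.23, adjusted p = 0.0141) were higher, and the other catalytic gene Ppp3cb was lower (-0.30, adjusted p = 0.00408; 0.14 under the beta marker scaling). Nfat5 (0.47, adjusted p = 0.0169) and, named after their values were seen, Nfatc1 (0.44, adjusted p = 0.0181) and Nfatc2 (0.42, adjusted p = 0.0169) rose. Without WT replicate 1 or WT replicate 3, the calls of Ppp3ca, Nfat5 and Nfatc1 were lost, with adjusted p between 0.06 and 0.0722, and that of Nfat5 also without KO replicate 2 (0.0532). The count of 7 became 4 without WT replicate 1, 3 without WT replicate 3, 3 with KO replicate 1 alone and 0 with equal sums outside the acinar markers.

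**Figure D5:**
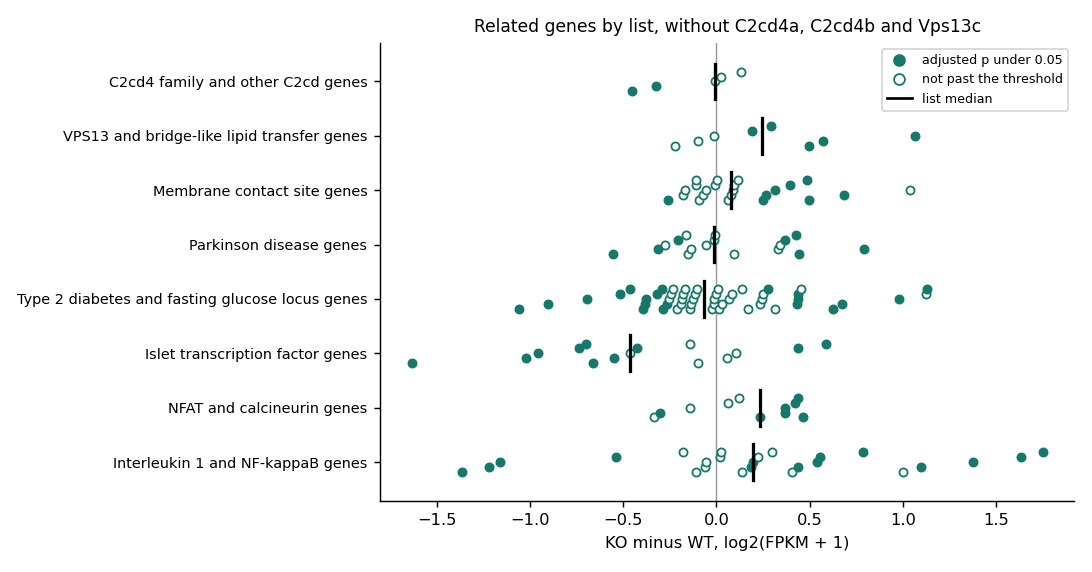
Log2 difference, KO minus WT, of each tested gene in the 8 lists of related genes, with the median of each list as a line and filled points for adjusted p under 0.05. Islet transcription factor genes have the lowest median (-0.46), and the medians of the other lists lie between -0.06 and 0.24.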

How the data were processed

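Per the labels, total RNA of islets was sequenced from 3 KO and 3 WT libraries. The authors aligned reads with TopHat2 2.0.8b to mm10 and used Cuffdiff 2.1.1, per the submitters' processing notes; the sources used here do not give the annotation, strand setting, read length or library scaling. Deposited values were taken to be FPKM, the unit that Cuffdiff writes, since the files name none. FPKM depends on what else a library holds and splits fragments of similar copies by estimate. Sums per library ran from 416935 to 1056344.

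The 11669 genes that averaged 1 FPKM or more were tested, as log2(FPKM + 1), by limma 3.58.1 in R 4.3.3 (eBayes with a trend, two-sided, group only, residual degrees of freedom 4), adjusted over all of them by the Benjamini-Hochberg method and a threshold of 0.05; log2 differences understate changes of low genes. The test was checked on simulated data whose noise had the spread of the WT libraries. That check did not cover the wider spread of the KO libraries or shifts shared by many genes. Dates and batches are unknown here, so a batch that differed between the groups cannot be told apart from genotype. The members and the lists of genes and markers were chosen with earlier results of these data known. The named genes are the members, their family, the 10 nearest tested neighbours and the called ones beyond, up to 4 genes of the smallest p per list and the 5 genes most like each member; others are said to be named after their values were seen, and some that this rule names are not reported here. The worth of 1 fragment was read from ratios of values under 0.06 FPKM. Positions and transcripts came from GENCODE M21, and promoters from RefSeq. Tools were Python 3.11.15, pandas 2.3.3, Biopython 1.88 and matplotlib 3.10.9.

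Alternatives were a pseudocount of 0.1, no minimum or one of 5 FPKM, median-of-ratios scaling, quantile normalization, FPKM sums made equal outside the acinar list, the replicate number as a block, the acinar level as a covariate, KO replicate 1 alone against WT, and each library left out. The single KO library was taken to vary like the WT libraries. Equal sums outside acinar and insulin genes, and scaling to the beta cell markers other than insulin, were chosen after seeing the data.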

Additional observations from a re-analysis of the deposited data

How the results depend on the processing

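Depth was unknown, the groups had 3 libraries each, and KO replicates 2 and 3 carried most of the acinar signal, so the scaling and the covariate could move values. C2cd4a was lower in KO under every alternative run, with log2 differences of -1.59 with the acinar covariate, -1.47 for KO replicate 1 alone, -1.68 under beta marker scaling and -2.44 to -1.91 with 1 library left out. C2cd4b was lower as well, at -1.06, -0.99 and -1.13 under those 3 settings and -1.89 to -1.33 with 1 library left out. The covariate fit, like the fit of KO replicate 1 alone, leans on that library. Vps13c was at -0.20 with sums equalised outside the acinar list and at 0.40 under beta marker scaling, where the median of all genes was -0.22 and 0.40, and at -0.11 to 0.07 with 1 library left out. The cause of these shifts was not tested.

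Calls over all genes numbered 4657, and 1844 with sums equalised outside the acinar list, 1724 with sums equalised outside acinar and insulin genes (36.7% of them higher), 2625 with the covariate, 3041 for KO replicate 1 alone and 2481 to 5727 with 1 library left out. Beta marker scaling gave 6263 calls, 96.7% of them higher. Over the listed genes there were 72 calls, and 31 and 32 under the 2 equal-sum scalings. Neighbours had 6 calls, and 2 under either equal-sum scaling, 3 with the covariate, 13 under beta marker scaling and 3 to 9 with 1 library left out. The replicate numbers gave no sign of pairing. After group means were taken out, same-numbered libraries had correlations of -0.206, -0.089 and 0.028, and not every library correlated best with its own number. With 3 libraries per group, such a check cannot show that the samples were unpaired. With the replicate number as a block, 3865 genes were called, and the differences of C2cd4a, C2cd4b and Vps13c were -2.11, -1.59 and 0.005. Each number occurs in both groups, so the block leaves the differences unchanged by construction and changes only their errors.

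Among 43 called genes followed through the alternatives, 33 passed in every fit without 1 library and 14 under every alternative in which they were tested. At the minimum of 5 FPKM, 40 of the 52 genes followed, called or not, were tested. A gene left out there was not counted as lost. Under beta marker scaling the sign turned for Vps13a (0.34), Vps13b (0.30), Vps13d (0.16), Rora (0.39), Aph1b (0.12), Herc1 (0.30), Narg2 (0.25), 5730419I09Rik (0.086), Ap3s2 (0.030), Ppp3cb (0.14) and Abcc8 (0.0001). It also turned for Rora (0.064), Rps27l (-0.025) and Narg2 (0.069) with KO replicate 1 alone, for Narg2 (0.075) with the covariate, and for Usp3 (-0.061) and Atg2b (-0.021) with sums equalised outside the acinar list. With 1 library left out, Vps13a ran from -0.078 to 0.047, Rora from -0.12 to 0.096 and Narg2 from -0.077 to 0.046.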
